A study of Mus musculus with 88 samples.

Results

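Major histocompatibility complex (MHC) class II genes and their transactivator were followed in mouse cortex before and after a focal contusion. The set holds 7 of the 54532 genes in the count table, taken as the rows whose Ensembl identifiers map to the symbols H2-Aa, H2-Ab1, H2-Eb1, Cd74, H2-DMa, H2-DMb1 and Ciita. Controlled cortical impact is an injury model in which a driven piston deforms the exposed cortex by a set distance. Male and female C57BL/6 mice (given also as C57BL/6J, from Charles River), 8 to 9 weeks old and gonad-intact, were impacted once over the right somatosensory cortex. Under isoflurane, a 2 mm tip entered a 3 mm craniotomy at 6.0 m/s to 1 mm depth and stayed for 100 ms, and the mice then received buprenorphine at 0.05 mg/kg and 0.5 mL of saline. Perfused brains gave 4 mm punches of cortex at the impact (ipsilateral) and from the uninjured hemisphere (contralateral) at 24 h or 72 h. Naive mice had no surgery, and their right punch was named ipsilateral by the submitters. There is no group with surgery alone, so the impact, the craniotomy and the drugs given with it cannot be told apart.

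On each side there were 7 naive females, 6 naive males, 7 females at 24 h, 8 males at 24 h and 9 females at 72 h, with 6 ipsilateral and 7 contralateral punches from males at 72 h. A further ipsilateral 72 h library, from PM1, is titled female although its opposite punch is titled male, and it entered no comparison. The 88 libraries of 44 animals held 10.6 M to 26.36 M counts (median 16.25 M), and mitochondrial transcripts took 2.35 to 10.48% of them. Summed markers of cortical neurons, such as Snap25 and Slc17a7, had a median of 6680 counts per 1000000 counts of the library (CPM) in naive ipsilateral punches, as the tissue label says. A pair of animals bear on the values below. Both libraries of LF3, female replicate 1 at 72 h, stood at least 2.0-fold above every other library in 925 genes and below every other library in 165, whereas no other animal did so in more than 1. The ipsilateral library of EM3, naive male replicate 3, held more class II RNA than the other naive libraries, as given beside each gene. The ipsilateral library labelled as female PF1 at 72 h carried Xist at 0.107 CPM and summed Y-linked transcripts at 141 CPM, against its label, and was kept as labelled. Without that library the log2 fold change of H2-Aa at 72 h was 3.77 in place of 3.69, and the same number of the 7 genes, 6, was called. In females alone H2-Aa was then 4.06 in place of 3.96, and without both punches of PF1 the side difference at 72 h was 3.6 in place of 3.58, with 7 genes called. The ipsilateral library of PM1 carried Xist at 454 CPM and no Y-linked counts, and whether it and that of PF1 were exchanged was not tested. The contralateral library of PF1 carried Xist at 486 CPM and no Y-linked counts, so the punches paired as PF1 differ in sex by these transcripts.

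Class II molecules are pairs of an alpha and a beta chain that present peptides from the endocytic pathway to CD4+ T cells. Cd74, the invariant chain, holds new class II molecules in shape and steers them to endosomes, where cathepsins cut it down to a short stub, and the DM heterodimer then swaps that stub for peptide. Ciita does not bind DNA itself: it is recruited by the RFX, CREB and NF-Y proteins that sit on the X and Y boxes of these promoters, and interferon gamma is its best known inducer. In healthy brain, class II is mostly found on border macrophages and other cells at the surface of the brain, and little of it on resting microglia. C57BL/6 mice carry a defective Ea gene, so they transcribe the Eb beta chain without a partner. H2-Ea-ps, the name under which that gene is listed, had 1 count in all libraries with a group.

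H2-Aa encodes the alpha chain of I-A (chr17:34282744-34287823, minus strand, GRCm38) and H2-Ab1 its beta chain (chr17:34257689-34269419, plus strand). H2-Eb1, the beta chain of I-E, lies at chr17:34305867-34316674 on the plus strand. The DM chains H2-DMa (chr17:34119541-34139101) and H2-DMb1 (chr17:34153072-34160230) lie on the plus strand of the same MHC region. Ciita lies on chromosome 16 (chr16:10480059-10528418, plus strand) and Cd74 outside both regions. Exons of Ciita overlap those of Dexi, on the opposite strand, over 329 bases, and exons of H2-DMa overlap those of Brd2, also opposite, over 360 bases. Whether the counting used strand is not given in the sources used here, so reads there could belong to either gene. H2-DMb1 and H2-DMb2 are near copies, and the split of reads between them is uncertain.

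The RefSeq table (GRCm38.p6) gives 250 bases before to 50 bases after a transcript start. It holds windows for 4 members, all on chromosome 17. They are printed to show where in these windows the boxes through which Ciita acts were found. Capitals mark an X1 box core (letters AACNGATG), an X2 box (TGACGTCA) or a Y box (GATTGG), each searched on both strands. The letters were chosen after the class II sequences had been seen, so their presence there is a description.
H2-Aa, chr17:34287774-34288073, minus strand: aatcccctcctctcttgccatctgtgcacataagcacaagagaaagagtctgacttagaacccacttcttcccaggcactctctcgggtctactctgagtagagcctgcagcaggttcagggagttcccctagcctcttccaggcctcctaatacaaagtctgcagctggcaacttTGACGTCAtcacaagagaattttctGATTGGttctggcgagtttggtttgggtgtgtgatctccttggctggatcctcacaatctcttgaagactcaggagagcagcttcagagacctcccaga
H2-Eb1, chr17:34305617-34305916, plus strand: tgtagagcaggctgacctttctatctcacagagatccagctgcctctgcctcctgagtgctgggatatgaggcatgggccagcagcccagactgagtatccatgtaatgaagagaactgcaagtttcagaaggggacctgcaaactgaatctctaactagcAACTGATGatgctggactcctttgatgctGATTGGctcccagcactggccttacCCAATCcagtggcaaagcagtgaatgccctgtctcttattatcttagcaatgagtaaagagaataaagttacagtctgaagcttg
H2-DMb1, chr17:34152941-34153240, plus strand: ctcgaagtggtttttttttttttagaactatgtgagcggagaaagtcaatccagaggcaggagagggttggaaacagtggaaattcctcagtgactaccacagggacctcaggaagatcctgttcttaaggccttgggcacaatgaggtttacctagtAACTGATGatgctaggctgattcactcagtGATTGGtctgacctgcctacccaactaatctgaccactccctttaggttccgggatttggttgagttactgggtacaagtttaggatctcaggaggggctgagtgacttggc
H2-DMa, chr17:34122582-34122881, plus strand: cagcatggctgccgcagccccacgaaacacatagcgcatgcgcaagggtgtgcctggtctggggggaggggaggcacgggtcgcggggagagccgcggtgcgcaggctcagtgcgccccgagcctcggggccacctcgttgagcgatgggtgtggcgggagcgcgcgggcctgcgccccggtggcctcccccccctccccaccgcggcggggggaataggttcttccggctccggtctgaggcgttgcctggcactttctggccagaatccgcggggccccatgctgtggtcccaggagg
H2-DMa, chr17:34125268-34125567, plus strand: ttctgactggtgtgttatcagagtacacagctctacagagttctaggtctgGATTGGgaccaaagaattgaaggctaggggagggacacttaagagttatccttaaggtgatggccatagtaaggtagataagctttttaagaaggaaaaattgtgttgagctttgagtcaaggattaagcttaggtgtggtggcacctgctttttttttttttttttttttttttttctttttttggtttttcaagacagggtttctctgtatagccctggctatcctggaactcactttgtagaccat

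Counted from the transcript start, the Y box begins at -49 in H2-Aa, -60 in H2-Eb1 and -62 in H2-DMb1. An X1 core precedes it in H2-Eb1, with 21 bases between them, and in H2-DMb1, with 22, and in H2-Aa an X2 box begins at -74. H2-Eb1 has a further Y box, on the other strand, at -35. One H2-DMa window held no match and the other a single Y box at -199, far from the start. Both windows start inside the span of H2-DMa (34119541 to 34139101). Whether either belongs to its principal transcript was not tested, so they do not show that the H2-DMa promoter lacks these boxes. In the H2-DMb1 window the marked boxes also lie inside the annotated gene (34153072 to 34160230). Its positions count from the RefSeq start, which differs from the annotated one. Of 32851 promoter windows of this length, 16.1% held a Y box, 1.79% an X2 box and 2.32% an X1 core. The order of X1 core and then Y box within 40 bases on 1 strand occurred in 8 windows (0.0244%), those of H2-DMb1, H2-DMb2, H2-Eb1, H2-Eb2, BC051142, G3bp2, Gm35444 and Scgb2b20. H2-Ab1, Cd74 and Ciita were not matched in that table.

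The first question was how the set stood in the injured cortex against naive cortex. H2-Aa, H2-Ab1, H2-Eb1, Cd74 and H2-DMb1 rose by 24 h and rose further by 72 h. H2-DMa rose at 72 h by 0.33 on the log2 scale, and Ciita was not called at either time. In the fit averaged over the sexes, 5 of the 7 were called higher at 24 h, where 22.9% of the 19126 genes tested were called higher, and 6 of 7 at 72 h, where 27.8% were. Called means an adjusted p under 0.05 from edgeR's quasi-likelihood test with batch as a term and Benjamini-Hochberg adjustment over all genes tested. Part of the 72 h mice formed a batch without other mice. With the batch term, the 72 h contrasts averaged over the sexes therefore rest mainly on the remaining 72 h mice. The median log2 fold change of the 7 was 1.49 at 24 h and 3.05 at 72 h, beside 0.01 and 0.06 for all genes tested. Bulk RNA cannot tell apart more cells that carry a transcript and more transcript in each cell. The replicates are separate animals, so p-values measure the spread between animals.

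**Figure D1:**
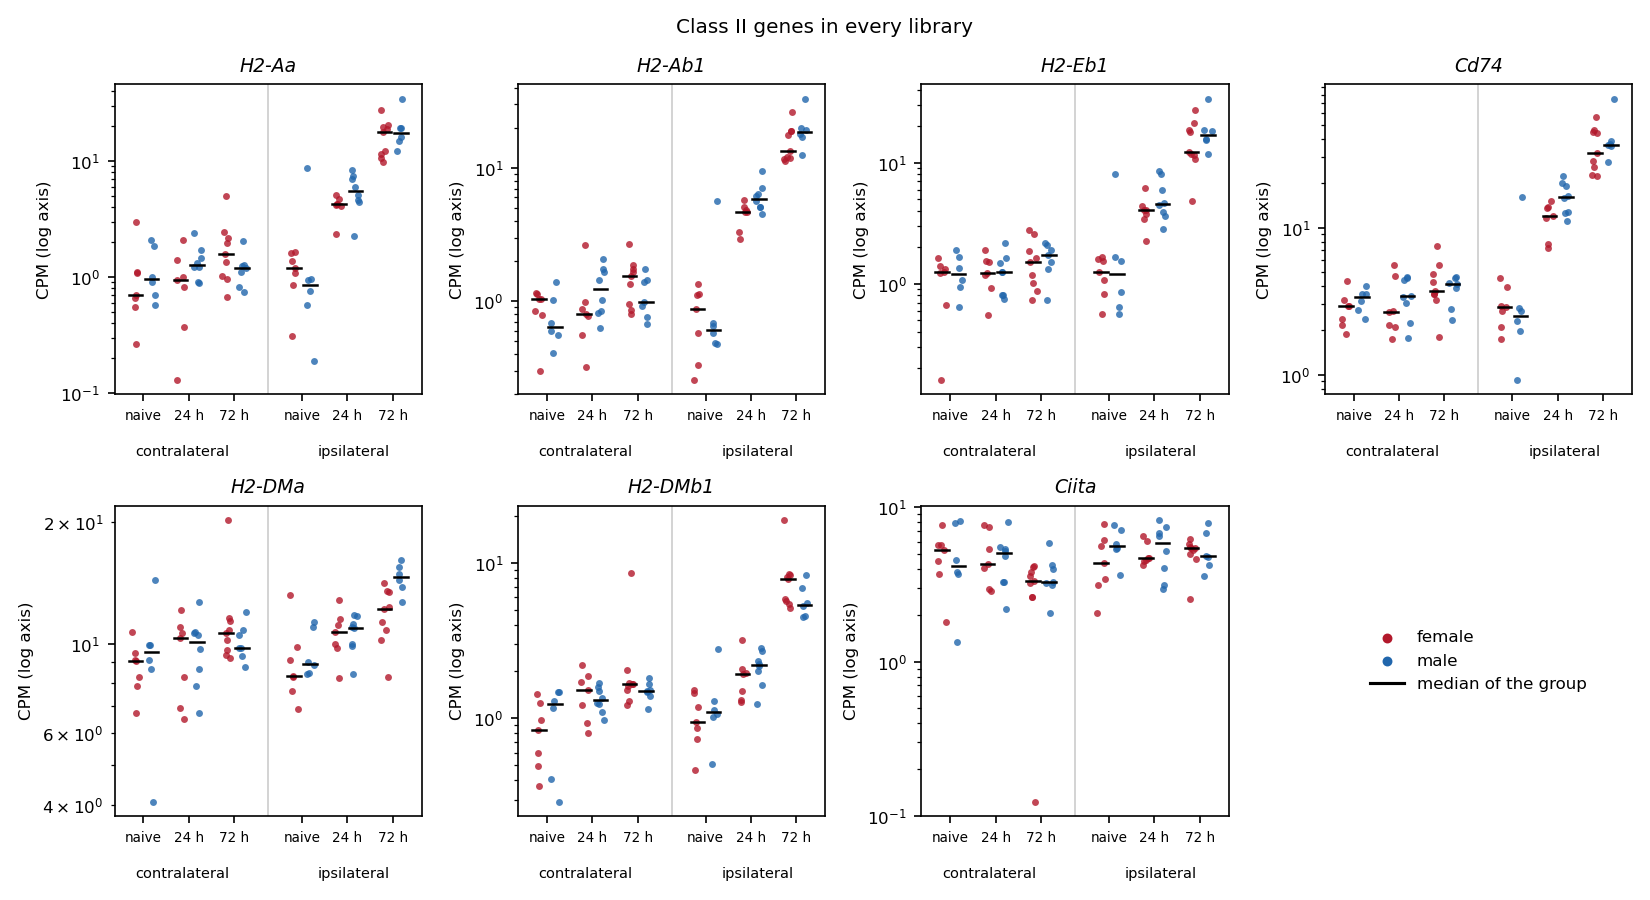
Each panel shows 1 gene, with a point for each library in CPM on a log axis, by side and time, females in red, males in blue and a black bar at the median of each sex. Ipsilateral H2-Aa, H2-Ab1, H2-Eb1 and Cd74 climb from naive to 72 h (medians of H2-Aa 0.956, 4.61 and 17.7 CPM), while Ciita overlaps across the conditions (medians 5.44, 4.68 and 5.27 CPM).

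H2-Aa was at 0.188, 0.956 and 8.65 CPM in the lowest, median and highest of the 13 naive ipsilateral libraries. It was at 2.24, 4.61 and 8.37 CPM in the 15 libraries at 24 h. By 72 h the 15 libraries lay at 9.84, 17.7 and 34.5 CPM. The naive maximum belonged to EM3, and without it the highest naive library held 1.66 CPM, below all 15 libraries at 24 h. All 15 libraries at 72 h were above all 15 at 24 h. The log2 fold change against naive was 1.76 ± 0.33 (SE) at 24 h (edgeR, adjusted p = 2.88e-05) and 3.69 ± 0.46 at 72 h (adjusted p = 1.32e-08).

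H2-Ab1, the partner beta chain, was at 0.255, 0.652 and 5.65 CPM in naive ipsilateral cortex, the last again EM3 (next highest 1.34). At 24 h it was at 2.95, 5.06 and 9.54 CPM, and at 72 h at 11.2, 17.6 and 33.1 CPM. With EM3 counted, 5 of the 15 libraries at 24 h exceeded every naive library, and without it all 15 did. All 15 libraries at 72 h exceeded all those at 24 h. H2-Ab1 showed the largest log2 fold changes of the set, 2.38 ± 0.29 at 24 h (adjusted p = 6.19e-09) and 4.02 ± 0.39 at 72 h (adjusted p = 3.68e-11).

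H2-Eb1 was at 0.564, 1.26 and 8.11 CPM in naive ipsilateral libraries (EM3 highest, otherwise 1.67). It was at 2.24, 4.1 and 8.56 CPM at 24 h and at 4.85, 15.8 and 33.9 CPM at 72 h. The lowest value at 72 h was that of LF3, and the other 14 libraries began at 10.7 CPM, above every library at 24 h. Its log2 fold change was 1.49 ± 0.30 at 24 h (adjusted p = 8.26e-05) and 3.05 ± 0.42 at 72 h (adjusted p = 1.01e-07).

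Cd74, on chromosome 18, was at 0.914, 2.71 and 16.1 CPM in naive ipsilateral cortex, and at most 4.53 CPM without EM3. At 24 h it was at 7.3, 13.5 and 22.4 CPM, and at 72 h at 22.3, 36.4 and 75.3 CPM. The highest was male SM1 at 72 h. All 15 libraries at 72 h were above every naive library, and 14 of 15 were above every library at 24 h. The log2 fold change was 1.93 ± 0.27 at 24 h (adjusted p = 1.43e-07) and 3.23 ± 0.38 at 72 h (adjusted p = 3.19e-09). Without LF3 and EM3, the 4 genes of H2-Aa, H2-Ab1, H2-Eb1 and Cd74 gave larger log2 fold changes, 2.42, 2.94, 1.97 and 2.40 at 24 h and 4.09, 4.52, 3.59 and 3.68 at 72 h.

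The DM chains did not move alike. H2-DMb1 was at 0.468, 1.07 and 2.79 CPM in naive ipsilateral cortex (EM3 highest, otherwise 1.53). It was at 1.23, 2.0 and 3.18 CPM at 24 h and at 4.45, 5.86 and 18.8 CPM at 72 h, where LF3 was the highest and the next library held 8.45. The log2 fold change was 0.78 ± 0.22 at 24 h (adjusted p = 0.00355) and 2.77 ± 0.31 at 72 h (adjusted p = 1.05e-09), or 2.36 at 72 h without LF3. All 15 libraries at 72 h were above all naive libraries and all those at 24 h.

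H2-DMa, its partner, was at 6.88, 8.86 and 13.2 CPM in naive ipsilateral cortex, at 8.2, 10.9 and 12.8 CPM at 24 h and at 8.29, 13.4 and 16.1 CPM at 72 h. The groups overlapped, with 8 of 15 libraries at 72 h above the naive range and none at 24 h. The log2 fold change was 0.14 ± 0.08 at 24 h (adjusted p = 0.161) and 0.33 ± 0.12 at 72 h (adjusted p = 0.0204). That call was lost when any one of KF2, PF2 or PM2 was left out (0.27 to 0.30), with no filter on low counts (0.35, adjusted p = 0.0535) and in batch B alone (0.25, adjusted p = 0.277). Reads from Brd2, which shares exon sequence with H2-DMa, could not be separated here either. Their part in the H2-DMa values was not tested.

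Ciita was at 2.06, 5.44 and 7.77 CPM in naive ipsilateral cortex, at 2.95, 4.68 and 8.27 CPM at 24 h and at 2.55, 5.27 and 7.87 CPM at 72 h. A single library at each time was above the naive range. Its log2 fold change was 0.18 ± 0.12 at 24 h (adjusted p = 0.253) and 0.15 ± 0.19 at 72 h (adjusted p = 0.537). Ciita was thus measured in every library at levels of the same order in all 3 conditions while H2-Aa, H2-Ab1, H2-Eb1 and Cd74 moved by 3.05 to 4.02 on the log2 scale at 72 h. Reads from Dexi, which shares exon sequence with it, could not be separated here, and the part they have in the Ciita values was not tested.

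Batch letters in the labels divide the animals, with naive and 24 h mice in batch A, all times in batch B and 72 h mice alone in batch C. With the batch term, the level at 72 h averaged over the sexes rests mainly on batch B, which holds LF3 and PF1. The mice of batch C bear mainly on the spread and on the difference between the sexes. At 24 h, batch A alone gave log2 fold changes of 1.45 for H2-Aa, 2.08 for H2-Ab1, 1.36 for H2-Eb1, 1.74 for Cd74 and 0.73 for H2-DMb1, all called. Batch B alone gave 2.41, 3.04, 1.79, 2.32 and 0.94, of which H2-DMb1 was not called (adjusted p = 0.103). At 72 h, batch B alone gave 4.17, 4.55, 3.30, 3.52 and 2.85 for the same genes, all called. The pooled fit rests mainly on the same 72 h mice, so this is not separate support for it. With no batch term, where the mice of batch C count in full, the first 4 of these genes were at 3.55, 4.06, 3.36 and 3.40. Within both batches the direction at 24 h was therefore that of the pooled fit for these 5 genes.

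From 24 h to 72 h, 5 of the 7 genes rose again, where 21.7% of all genes tested were called higher. The log2 difference was 1.93 ± 0.39 for H2-Aa (adjusted p = 0.000149), 1.64 ± 0.33 for H2-Ab1 (adjusted p = 0.000133) and 1.56 ± 0.36 for H2-Eb1 (adjusted p = 0.000773). For Cd74 it was 1.31 ± 0.33 (adjusted p = 0.0018) and for H2-DMb1 1.99 ± 0.27 (adjusted p = 3.4e-07). H2-DMa (0.19, adjusted p = 0.178) and Ciita (-0.03, adjusted p = 0.916) were not called, although H2-DMa was called without LF3 (0.28, adjusted p = 0.0492). This contrast and the pair against naive share libraries.

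**Figure D2:**
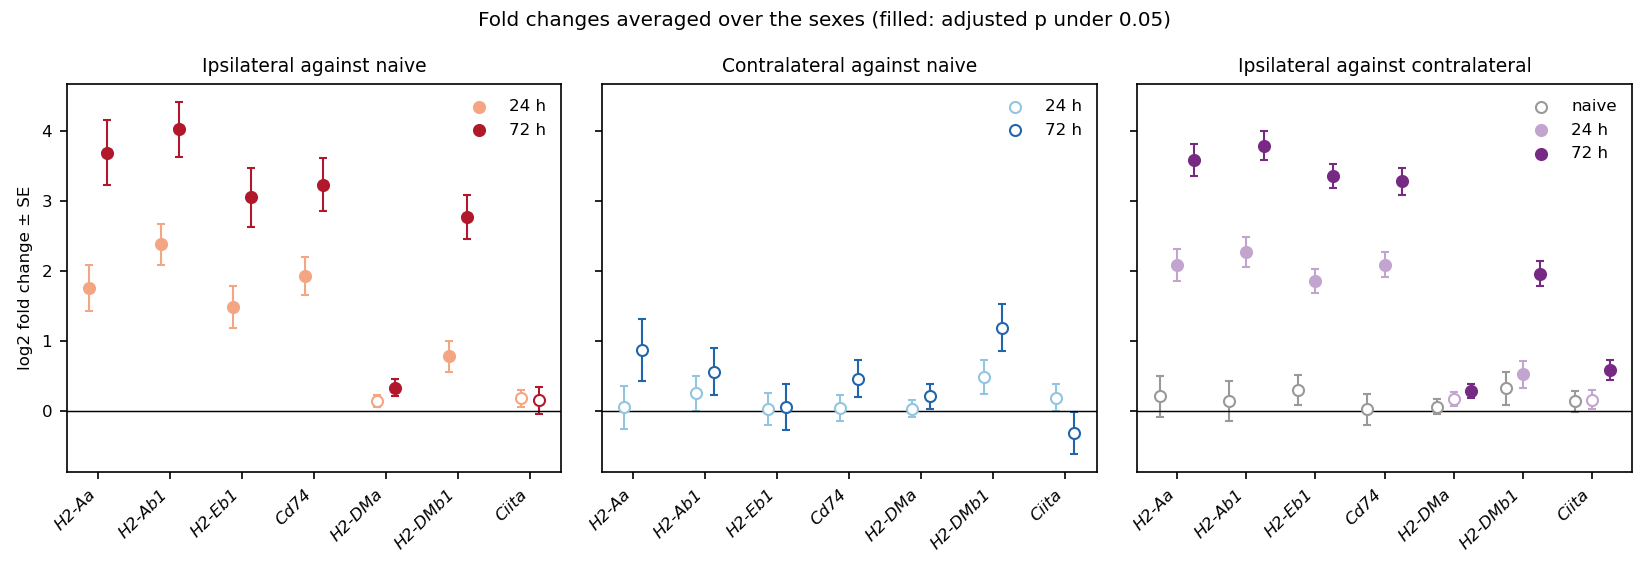
Points give log2 fold changes with bars of 1 SE for the 7 genes, averaged over the sexes, with filled points where the adjusted p is under 0.05. The left panel compares injured with naive ipsilateral cortex, the middle panel the same for contralateral cortex, where no point is filled, and the right panel the sides of the same animals, where all 7 are filled at 72 h.

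The opposite hemisphere was compared in the same way. None of the 7 genes was called in contralateral cortex at 24 h, where 2.1% of the 18436 genes tested were called, at 72 h, where 0.26% were, or between these times, where 9.21% were. These shares depend on 1 animal and on the batch term: the 48 genes called at 72 h became 17 without LF3 and 1456 with no batch term, the 1698 between the times became 45 and 699, and the 388 at 24 h became 1190 without LF3. At the unadjusted 0.05 level, 2506, 3047 and 4627 genes lay under the threshold in these comparisons. H2-Aa was at 0.265, 0.916 and 3.01 CPM in naive contralateral libraries, at 0.129, 1.22 and 2.39 CPM at 24 h and at 0.681, 1.25 and 5.04 CPM at 72 h. The last was LF3, and the other 15 libraries reached 2.43 CPM. Cd74 was at 1.88, 2.94 and 4.33 CPM, then 1.76, 3.05 and 5.56 CPM, then 1.79, 4.02 and 7.5 CPM (LF3, otherwise 5.59). The contralateral groups overlapped in both genes.

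H2-Ab1 was at 0.3, 0.841 and 1.39 CPM in naive, 0.321, 0.879 and 2.62 CPM in 24 h and 0.679, 1.37 and 2.7 CPM in 72 h contralateral cortex. For H2-Eb1 the medians were 1.26, 1.26 and 1.57 CPM. The log2 fold changes at 72 h were 0.87 ± 0.44 for H2-Aa (adjusted p = 0.31), 0.56 for H2-Ab1, 0.06 for H2-Eb1 and 0.46 for Cd74. Without LF3 the same 4 were 0.54, 0.41, 0.15 and 0.28. At 24 h the 7 genes lay between 0.03 and 0.48.

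H2-DMb1 came nearest to a call on that side. It was at 0.29, 0.975 and 1.48 CPM in naive, 0.802, 1.36 and 2.2 CPM at 24 h and 1.15, 1.56 and 8.6 CPM at 72 h, the last again LF3 (otherwise 2.03). At 72 h 12 of 16 libraries were above the naive range. The log2 fold change was 1.19 ± 0.33 (edgeR, adjusted p = 0.0984), which fell to 0.58 without LF3 (adjusted p = 0.818) and was called by DESeq2 (1.23, adjusted p = 0.0475) and without the batch term (0.98, adjusted p = 0.0111). Leaving out PF1, PF2 or PM2 in turn, with LF3 kept in, also gave a call (1.31, 1.35 and 1.27). In females alone it was called at 72 h (1.57 ± 0.39, adjusted p = 0.0322), and not without LF3 (0.72 ± 0.33, adjusted p = 0.968). Ciita was at 1.34, 4.54 and 8.14 CPM in naive, 2.18, 4.87 and 7.98 CPM at 24 h and 0.123, 3.31 and 5.91 CPM at 72 h, with LF3 at a single count. Its log2 fold change at 72 h was -0.32 (adjusted p = 0.639), and -0.13 without LF3. At this depth H2-Aa had 228 counts over the 13 naive contralateral libraries. Shifts well above the standard errors given could be missed, as 1.19 ± 0.33 for H2-DMb1 was not called by edgeR. A missing call on this side does not show that a gene was unchanged.

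By the labels each animal gave both punches, so the sides were also compared within animals, with the animal as a block. Among 13 naive mice none of the 7 genes was called between the sides, with log2 differences of 0.02 to 0.32 (all adjusted p = 1) and 0% of 19946 genes called (574 at an unadjusted p under 0.05, 17 called with no filter on low counts). In the 15 mice at 24 h, 5 genes were higher on the injured side, where 23.7% of all genes were called higher, and in the 15 at 72 h all 7 were, where 31.1% were. H2-Aa was higher on the right in 6 of 13 naive mice, and higher on the injured side in 15 of 15 mice at each later time. The ratio of sides for H2-Aa was 0.269, 0.979 and 4.15 (lowest, median, highest) in naive mice, 1.83, 4.16 and 32.2 at 24 h and 4.05, 13 and 31.5 at 72 h. Every injured mouse, as labelled, thus had more H2-Aa RNA on the impacted side, and the naive mice were split between the sides. The pairs at 72 h include PF1, whose punches differ in sex-linked transcripts and may not come from the same mouse.

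The same count, 15 of 15 at both times, held for H2-Ab1, H2-Eb1 and Cd74. Median ratios were 5.79 and 13.4 for H2-Ab1, 3.4 and 9.52 for H2-Eb1 and 4.98 and 10.3 for Cd74 at 24 h and 72 h. In naive mice they were 1.08, 1.0 and 0.878, with EM3 at 4.06, 4.24 and 4.04. The log2 side difference at 72 h was 3.58 ± 0.23 for H2-Aa (adjusted p = 2.05e-18), 3.79 ± 0.21 for H2-Ab1, 3.36 ± 0.17 for H2-Eb1 and 3.28 ± 0.19 for Cd74. At 24 h these were 2.08 ± 0.23, 2.27 ± 0.21, 1.85 ± 0.17 and 2.09 ± 0.18. From 24 h to 72 h the side difference grew by 1.50 for H2-Aa (adjusted p = 0.000263), 1.52 for H2-Ab1, 1.51 for H2-Eb1, 1.18 for Cd74 and 1.45 for H2-DMb1 (adjusted p = 1.37e-05), 5 of 7 genes where 18.9% of all genes were called higher.

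H2-DMb1 was higher on the right in 9 of 13 naive mice, with a median ratio of 1.23. It was higher on the injured side in 10 of 15 mice at 24 h, with a median ratio of 1.57 and a log2 difference of 0.52 ± 0.19 (adjusted p = 0.0193). That call was lost when DF2 was left out (0.44, adjusted p = 0.0528). At 72 h it was higher in 15 of 15, with a median ratio of 3.69 and a difference of 1.96 ± 0.18 (adjusted p = 2.93e-13). H2-DMa was higher on the right in 6 of 13 naive mice and on the injured side in 10 of 15 and 13 of 15 mice, with median ratios of 0.973, 1.04 and 1.21, and its difference at 72 h was 0.28 ± 0.10 (adjusted p = 0.0139).

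Ciita was higher on the right in 7 of 13 naive mice (median ratio 1.14). It was higher on the injured side in 9 of 15 mice at 24 h (median ratio 1.24) and in 15 of 15 at 72 h, with ratios of 1.14, 1.42 and 20.8. The highest ratio was LF3, whose contralateral library held the single count. The log2 side difference was 0.16 ± 0.14 at 24 h (adjusted p = 0.36) and 0.58 ± 0.14 at 72 h (adjusted p = 0.000362), or 0.55 without LF3. The growth between the times, 0.43 ± 0.20, was not called (adjusted p = 0.0848), though DESeq2 called it (0.44, adjusted p = 0.0477). At 72 h the median level of Ciita was 5.27 CPM on the injured and 3.31 CPM on the opposite side, beside 5.44 and 4.54 CPM in naive mice. So at 72 h the side difference was called, while neither side was called against naive.

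Set against the side difference of naive mice, fewer genes were called: 4 of 7 were higher at 24 h, where 16% of all genes were, and 5 of 7 at 72 h, where 25.1% were. The 4 at 24 h were H2-Aa (1.87 ± 0.37), H2-Ab1 (2.13 ± 0.35), H2-Eb1 (1.55 ± 0.27) and Cd74 (2.07 ± 0.29), and at 72 h these reached 3.37, 3.65, 3.06 and 3.26. H2-DMb1 was not called at 24 h (0.20 ± 0.29, adjusted p = 0.673) and was called at 72 h (1.64 ± 0.29, adjusted p = 5.67e-06). At 72 h H2-DMa (0.23 ± 0.15, adjusted p = 0.216) and Ciita (0.44 ± 0.20, adjusted p = 0.0683) were not called in this comparison.

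**Figure D3:**
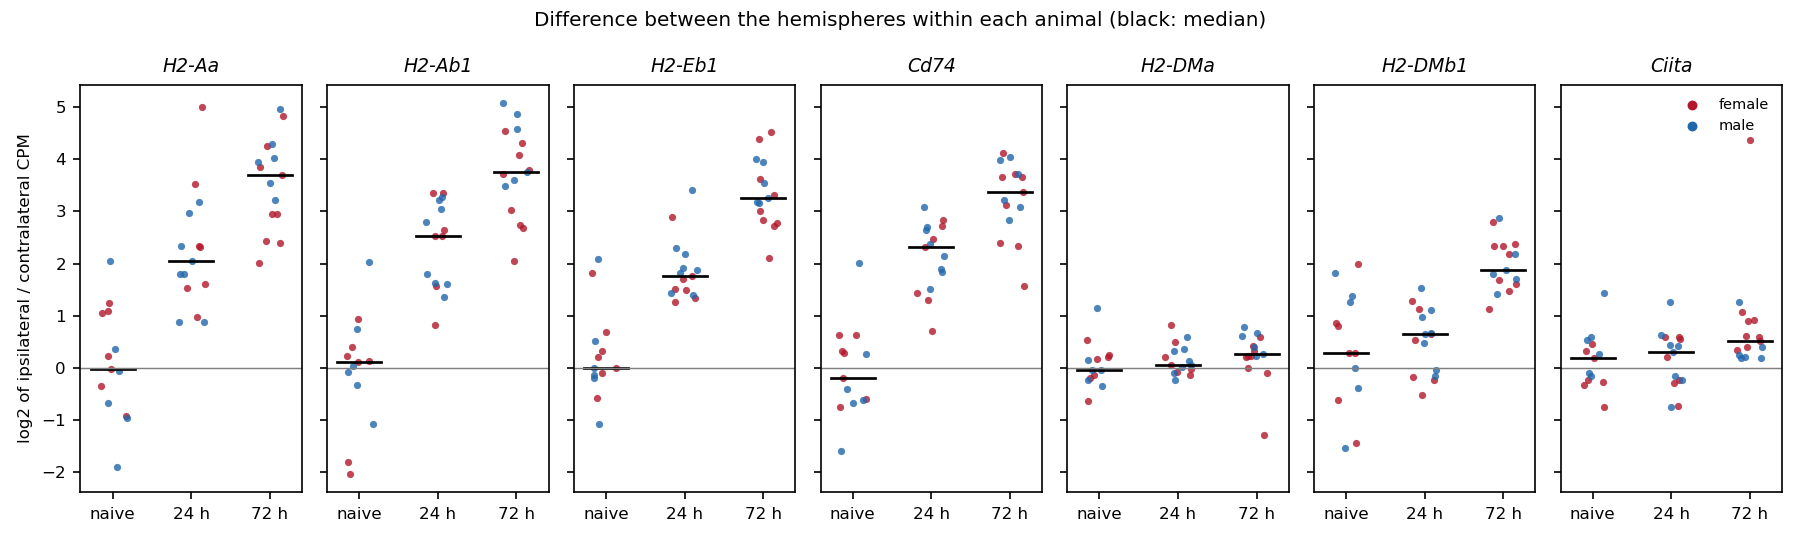
Each point is 1 animal as labelled, PF1 included, giving the log2 ratio of ipsilateral to contralateral CPM, with a black bar at the median for naive, 24 h and 72 h mice. For H2-Aa, H2-Ab1, H2-Eb1 and Cd74 all 15 animals at each later time lie above 0, and for Ciita all 15 do so at 72 h with a median ratio of 1.42.

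The series was designed to compare the sexes. Both showed the increase: in females 5 of 7 genes were called higher at 24 h (16.2% of all genes) and 5 at 72 h (26.7%), and in males 4 at 24 h (16.1%) and 6 at 72 h (20.8%). Female and male medians of H2-Aa were 4.28 and 5.54 CPM at 24 h, then 17.7 and 17.5 CPM at 72 h. Those of Cd74 were 12.0 and 16.1 CPM, then 32.1 and 36.6 CPM. For H2-Aa the log2 fold change at 24 h was 1.91 ± 0.46 in females and 1.60 ± 0.46 in males, and at 72 h 3.96 ± 0.54 and 3.42 ± 0.58. Within batches A and B, H2-Aa at 24 h was 1.87 and 1.90 in females and 1.04 and 2.92 in males, of which the values of batch A were not called (adjusted p = 0.0652 and 0.305), and EM3 is in batch A. For H2-DMb1 the pair at 72 h was 3.17 ± 0.36 and 2.38 ± 0.40, or 2.64 and 2.07 without LF3.

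The difference of these effects, female minus male, was not called for any of the 7, with 0% of all genes called at both times (299 and 580 genes at an unadjusted p under 0.05, and 1 and 0 genes called by DESeq2). It was 0.31 ± 0.63 for H2-Aa at 24 h and 0.54 ± 0.62 at 72 h, and for H2-DMb1 at 72 h 0.80 ± 0.42 (all adjusted p = 1), which was 0.57 without LF3 and 0.20 without LF3 and EM3. For H2-Aa, H2-Ab1, H2-Eb1 and Cd74 the sign turned when EM3, a naive male, was left out. Without its ipsilateral library the values at 24 h were -1.19 for H2-Aa, -0.95 for H2-Ab1, -0.61 for H2-Eb1 and -0.99 for Cd74, and at 72 h -0.96, -0.80, -0.54 and -0.70, again not called. A missing call does not show that the sexes respond alike, and the standard errors allow differences of over 1 on the log2 scale.

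Levels were compared between genes per kilobase of the principal transcript, since longer transcripts draw more reads. In naive ipsilateral cortex the order by median CPM per kilobase was H2-DMa (5.34), Cd74 (1.92), Ciita (0.905), H2-Aa (0.847), H2-DMb1 (0.761), H2-Eb1 (0.757) and H2-Ab1 (0.538). The range of Cd74 (0.648 to 11.4) overlapped all the others, though its overlap with H2-DMa (4.15 to 7.98) rests on EM3 alone. The last 5 overlapped throughout, so their order among themselves is not separated from the spread over libraries. At 24 h it was Cd74 (9.55), H2-DMa (6.56), H2-Ab1 (4.17), H2-Aa (4.09), H2-Eb1 (2.46), H2-DMb1 (1.43) and Ciita (0.779). At 72 h Cd74 (25.8), H2-Aa (15.7), H2-Ab1 (14.5) and H2-Eb1 (9.48) stood above H2-DMa (8.1), H2-DMb1 (4.17) and Ciita (0.878). The chaperone H2-DMa therefore went from the first to the fifth place, and the invariant chain stayed above the I-A chains at both later times. Ranges of neighbouring genes overlapped at 72 h, as those of H2-Aa (8.72 to 30.6) and H2-Ab1 (9.26 to 27.3) did. The levels of H2-DMa and Ciita may include reads from Brd2 and Dexi, and that part was not tested.

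**Figure D4:**
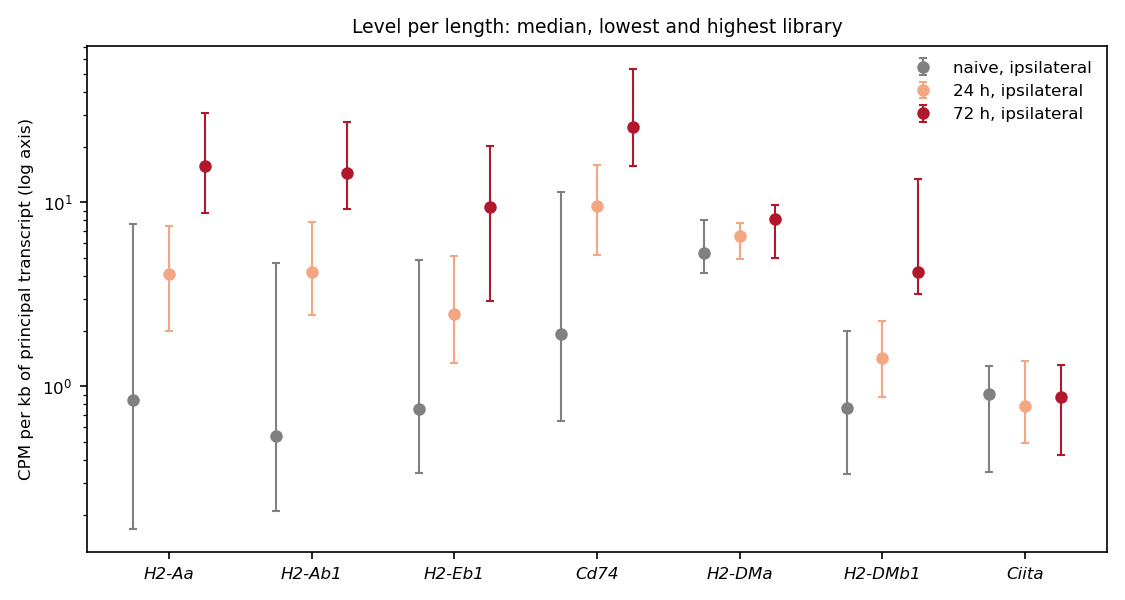
Points give the median CPM per kilobase of principal transcript on a log axis, with bars from the lowest to the highest library, for naive, 24 h and 72 h ipsilateral cortex. H2-DMa leads in naive cortex at 5.34, Cd74 leads at 72 h at 25.8, and Ciita stays below 1 in median throughout.

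Other genes of the class II pathway were read from a list of 15 in the table, of which 13 were tested on the injured side. At 24 h 7 rose and 2 fell, and at 72 h 9 rose and none fell, beside 22.9% higher and 20.1% lower among all genes tested at 24 h and 27.8% and 20.7% at 72 h. Their median log2 fold changes were 0.36 and 1.72. Ifi30, the thiol reductase that unfolds antigens in lysosomes, was at 1.65 CPM in median in naive, 9.67 at 24 h and 55.6 at 72 h, with log2 fold changes of 2.41 ± 0.21 and 4.74 ± 0.29. The proteases that trim antigen and invariant chain followed: Ctsz by 1.14 and 2.86, Ctsl by 0.79 and 2.03, and Lgmn by 0.79 and 2.32. Ctss, the cathepsin that makes the last cut in Cd74 in most antigen-presenting cells, was at 41.0, 56.0 and 246.0 CPM in median, with log2 fold changes of 0.43 ± 0.13 (adjusted p = 0.00686) and 2.60 ± 0.19 (adjusted p = 2.21e-14). Ctsd rose by 0.36 and 2.87. These enzymes serve lysosomes in general as well as class II.

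H2-Oa and H2-Ob form DO, an inhibitor of DM found mainly in B cells. H2-Oa had 79 counts in 13 naive libraries and 21 counts in 15 libraries at 24 h, with 6 of these at 0, and its log2 fold change was -2.38 ± 0.46 (adjusted p = 4.43e-05) at 24 h and was not called at 72 h. H2-Ob rose by 1.72 ± 0.46 at 72 h (adjusted p = 0.00188). H2-DMb2, the near copy of H2-DMb1, rose by 1.51 at 72 h (adjusted p = 0.0131), a call lost without LF3 (1.17, adjusted p = 0.0557). March1, a ubiquitin ligase that removes class II from the surface, fell by 0.40 at 24 h (-0.40 ± 0.13, adjusted p = 0.00873). In contralateral cortex 1 of 11 tested genes rose at each time, Ifi30 at 24 h (0.67, adjusted p = 0.00989) and Ctsz at 72 h (0.67, adjusted p = 0.00598, or 0.48 without LF3).

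A second list held the transcription factors of class II promoters and the interferon gamma pathway, 20 in the table and 19 tested. On the injured side 9 rose and 2 fell at each time, with median log2 fold changes of 0.21 and 0.31, beside the same 22.9% and 27.8% of all genes called higher. Rfx5, the DNA-binding RFX subunit, was at 21.1, 20.0 and 21.6 CPM in median and was not called (-0.03 and 0.03). The other RFX and NF-Y subunits were tested too: Nfya rose by 0.58 ± 0.11 and Rfxap changed by -0.46 ± 0.11 at 72 h. Spi1, the myeloid factor PU.1, rose by 1.85 ± 0.16 at 24 h and 2.71 ± 0.22 at 72 h, and its partner Irf8 by 1.06 and 2.51. Irf1, which carries the interferon signal to the Ciita promoter, rose by 0.77 ± 0.10 and 1.06 ± 0.14. Jak1, the kinase of the interferon receptors, rose by 0.49 ± 0.06 at 24 h.

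Ifng itself was close to the detection limit. It had no count in 13 naive ipsilateral libraries, which allows up to 0.0138 CPM over the group (3 counts), then 4 counts in 3 of 15 libraries at 24 h and 6 counts in 3 of 15 at 72 h. Socs1, an inhibitor of this pathway, rose by 1.06 at 24 h and by 3.18 ± 0.51 at 72 h, but by 1.26 at 72 h without LF3, which alone reached 62.2 CPM. In contralateral cortex Spi1 was called at 72 h (1.18, adjusted p = 0.0401), with a highest library of 29.7 CPM, and not without LF3 (0.57, adjusted p = 0.47).

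Genes of the second signal to T cells, which can be stimulatory or inhibitory, were tested in 7 of 8 cases. At 24 h 6 rose (22.9% of all genes) and at 72 h 5 (27.8%), and none fell. Icam1 rose by 2.54 ± 0.18 and 2.73 ± 0.25, Icosl by 1.97 and 2.11, Cd274 (PD-L1, an inhibitory ligand) by 1.94 and 1.91 and Cd86 by 1.10 and 2.24. Cd86 and Cd40 rose further between 24 h and 72 h (1.14 and 1.29), and the other 5 were not called between these times. No gene of this list was called in contralateral cortex at 24 h or 72 h.

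**Figure D5:**
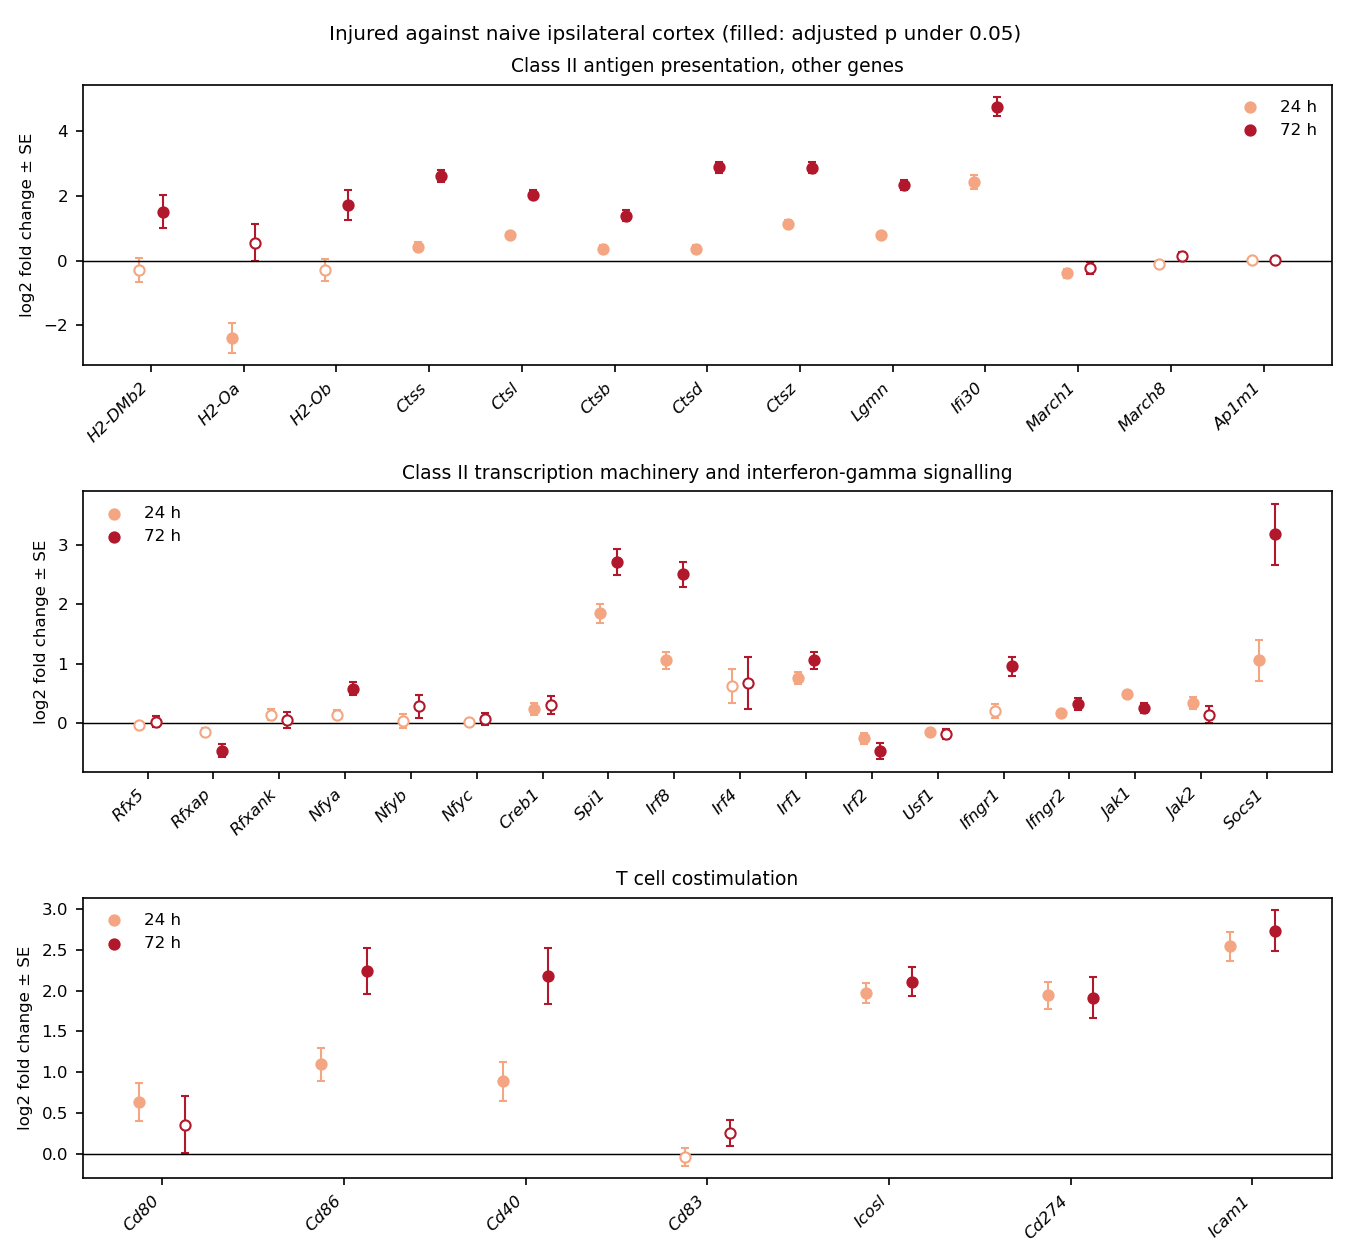
Points give log2 fold changes against naive in ipsilateral cortex at 24 h and 72 h with bars of 1 SE, filled where the adjusted p is under 0.05, for tested genes of 3 lists, with 1 gene of the middle list left out. Ifi30 reaches 4.74 in the upper panel, Rfx5 lies at 0.03 in the middle panel at 72 h and Icam1 lies at 2.73 in the lower panel.

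Markers of the cells that could carry class II moved over the same interval on the injured side. Summed microglia markers had medians of 273 CPM in naive, 249 at 24 h and 865 at 72 h, with ranges of 248 to 310, 199 to 289 and 410 to 1220. Of 9 tested, 2 rose and 6 fell at 24 h, when P2ry12 went from 39.7 to 8.33 CPM in median, and 8 rose at 72 h. Among all genes tested, 22.9% were called higher and 20.1% lower at 24 h, and 27.8% and 20.7% at 72 h. H2-Aa, H2-Ab1, H2-Eb1, Cd74 and H2-DMb1 rose at 24 h, when most of these microglia markers fell. Whether the number of microglia changed was not tested. Summed markers of border macrophages had medians of 43.9, 80.2 and 365 CPM (ranges 30.9 to 73.2, 52.0 to 113 and 144 to 702), and those of monocytes 25.6, 92 and 347 CPM (14.4 to 52.6, 51.2 to 316 and 197 to 1130). Ccr2, the receptor of inflammatory monocytes, was at 0.178, 6.36 and 9.99 CPM in median, and 7 of 8 monocyte markers rose at each time.

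Neutrophil markers summed to 7.79, 61.7 and 38.4 CPM in median, so their median sum was higher at 24 h than at 72 h. Markers of dendritic cells summed to 988, 750 and 921 CPM in median. In naive cortex this sum exceeded that of the microglia markers (273 CPM), and it was 5120 CPM in the contralateral library of LF3. Which cells these transcripts came from was not tested, so the sum is not a measure of dendritic cell number. Of 10 genes of this list tested, 2 rose and 5 fell at 24 h, and 3 rose and 3 fell at 72 h. Among all genes tested, 22.9% rose and 20.1% fell at 24 h, and 27.8% and 20.7% at 72 h. The rises in this list were thus near the share of all genes. The listed genes Flt3 (12.4, 8.61 and 7.33 CPM) and Zbtb46 (18.5, 13.6 and 10.1 CPM) were among those that fell at both times. Itgax (3.87 and 4.56 on the log2 scale) and Ccr7 (2.54 and 3.36) were among those that rose. Xcr1 had a median of 0 in naive and 0.178 CPM at 72 h. B cell markers summed to 28.8, 45 and 57.8 CPM, and 2 of 4 tested rose at each time, Cd79b (1.13 and 1.80 on the log2 scale) and Cd22 (2.09 and 5.00). Cd79a, a chain of the B cell receptor, was at 0.267, 0.374 and 0.321 CPM in median and was not called. T cell markers summed to 2.25, 3.6 and 3.95 CPM. Of 4 tested, Cd4 (1.2) and Cd28 (1.14) rose at 24 h and Cd28 (2.82) at 72 h, while Cd3d had a median of 0 in all 3 conditions. No natural killer marker was abundant enough to be tested. The part that any of these cells has in the class II increase was not tested.

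The same markers were read in EM3. Its summed border macrophage markers were 73.2 CPM against 30.9 to 47.8 in the other naive ipsilateral libraries, its monocyte markers 52.6 against 14.4 to 34.2 and its neutrophil markers 13.5 against 4.85 to 9.22, while its microglia markers (280) lay within their range. Genes outside the immune lists stood apart as well. Ogn was at 65.5 CPM in EM3 against 1.19 to 16.7 in the same other libraries, and Dcn at 61.6 against 5.06 to 13.9. In LF3 the Dexi gene was at 178 CPM ipsilaterally and 309 CPM contralaterally, against at most 73.6 CPM elsewhere, and summed neuron markers were 14500 and 16100 CPM. Their part in the class II values of these animals was not tested.

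Genes whose ipsilateral pattern was most like that of the class II chains and Cd74 were found by Pearson's r of log2 CPM with their mean z-score over 43 libraries, which share the 3 conditions, among 15865 genes. The highest were Lyz2 (0.962), Tmem106a (0.96), Ptpn6 (0.959), Casp8 (0.957), Fblim1 (0.955), Spp1 (0.954), P2ry6 (0.953) and Cd180 (0.949). Lyz2 encodes the lysozyme of myeloid cells, Ptpn6 the phosphatase SHP-1 and Cd180 a Toll-like receptor homologue. After group and batch means were taken out, Plbd1 (0.799) and Dab2 (0.772) led, and without LF3 and EM3 Tmem106a (0.81) and Tgfbi (0.75) did.

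For Ciita the leading genes were others: Cbl (0.724), Fryl (0.692), Ttll4 (0.674) and Rad54l2 (0.664). Over the same 43 libraries H2-Aa, H2-Ab1, H2-Eb1 and Cd74 correlated with each other at 0.95 to 0.97, H2-DMb1 with them at 0.84 to 0.89, and Ciita with them at 0.01 to 0.13. Once group and batch means were removed, the 4 correlated with each other at 0.71 to 0.85 and with Ciita at -0.18 to 0.10. Without LF3 and EM3 these ranges were 0.46 to 0.84 and -0.08 to 0.26 over 41 libraries. These values describe the libraries and carry no test.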

How the data were processed

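Gene-level read counts were deposited by the authors as 1 table of 88 libraries, and these counts were used without change. The submitters' processing notes name HISAT2 2.0.5 and the mm10 build. The counting tool, the annotation release and the use of strand were not given in the sources used here. RNA was poly(A) selected and copied from random hexamers, per the labels' protocols. Totals were 10.6 M to 26.36 M counts per library, and 0.013% of counts lay in rows with no symbol, which kept their identifiers in the fits.

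Groups came from the labels' animal, sex, treatment and side, and 87 libraries entered a group. edgeR 4.0.16 (R 4.3.3, limma 3.58.1) was run with its default low-count filter, TMM scaling and quasi-likelihood tests, with batch as a term for each side and the animal as a block between sides. Contrasts average the sexes. Two-sided p-values were adjusted with the Benjamini-Hochberg method across every gene tested, which were 19126 (ipsilateral, 43 libraries), 18436 (contralateral, 44) and 19946 (sides, 86 libraries of 43 animals). The pairing of sides comes from the shared animal name. Levels are CPM on TMM-scaled totals, and log2 values for correlations used a prior count of 2. In simulated counts, the fits at 24 h recovered 61.2% of 1.5-fold and 95.5% of 2-fold changes among 18241 genes ipsilaterally, with 4.5% false calls. The shares were 85.1% and 98.5% among 18197 genes contralaterally, with 5.5%, and 85.1% and 100% among 19182 genes between sides, with 7.3%. Changed genes were drawn only from those above a set naive mean, and contralateral H2-Ab1 (naive mean 0.845 CPM) and H2-DMb1 (0.93 CPM) lay below it. No batch effect, animal effect or deviant animal was simulated, so these shares need not hold for the genes and libraries here.

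The 7 genes, the lists and the tests were chosen with earlier results of these data known. From each list and comparison the 4 genes with the smallest p were named, together with Ifng, Rfx5, Irf1 and Ctss, the first markers of each cell type, and the 8 genes most like the set. H2-Oa, H2-Ob, H2-DMb2, March1, Nfya, Rfxap, Socs1, Dexi, Ogn, Dcn, Itgax, Ccr7, Cd79b, Cd22, Cd4 and Cd28 beside them were picked after their values were seen. Alternatives were DESeq2 1.42.0, no filter, total-count scaling, no batch term, single batches, no animal block and each library left out in turn, and, added after the data were seen, the fits without LF3 and without LF3 and EM3. Hormone values in the labels were not used here. Individual values of a few listed genes are not reported here, though they remain in the counts and sums of their lists.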

Additional observations from a re-analysis of the deposited data

Results flagged for a closer look

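Among 84 groups of 6 to 9 libraries, taken gene by gene, 1 library stood apart from the rest by Dixon's criterion on log2 CPM in 11. These came from 6 animals. Chance would flag about 1 in 20 groups. LF3, a female at 72 h, accounted for 5 of them: H2-DMb1 was 18.8 CPM ipsilaterally (others 5.1 to 8.45) and 8.6 CPM contralaterally (others 1.21 to 2.03), H2-DMa was 20.2 CPM contralaterally (others 9.19 to 11.6), and Ciita was 2.55 CPM ipsilaterally (others 4.6 to 6.28) and 0.123 CPM contralaterally (others 2.61 to 4.15). EM3, a naive male, had H2-Aa at 8.65 CPM (others 0.188 to 0.956) and H2-Ab1 at 5.65 CPM (others 0.478 to 0.691) in its ipsilateral punch. SM1, a male at 72 h, had ipsilateral Cd74 at 75.3 CPM (others 27.7 to 38.8). The remaining 3 were low: H2-Aa at 2.37 CPM in RF2, a female at 24 h (others 4.13 to 5.06), H2-Aa at 0.313 CPM in the ipsilateral punch of naive female EF3 (others 0.864 to 1.66), and H2-Ab1 at 0.3 CPM in the contralateral punch of naive female GF3 (others 0.795 to 1.15).

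The effect at 72 h exceeded that at 24 h in the test of the difference for 5 genes on the injured side, by 1.93 for H2-Aa, 1.64 for H2-Ab1, 1.56 for H2-Eb1, 1.31 for Cd74 and 1.99 for H2-DMb1 on the log2 scale. The same held for the difference between sides, by 1.50, 1.52, 1.51, 1.18 and 1.45 for these genes in that order.

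The ipsilateral 72 h library of PM1, which was in no comparison because its sex labels contradict each other, held H2-Aa at 14.2 CPM, H2-Ab1 at 16.3 CPM, H2-Eb1 at 13.7 CPM, Cd74 at 31.6 CPM and H2-DMb1 at 7.95 CPM, all above the naive libraries of the same side.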

How the results depend on the processing

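With the 7 genes' fold changes, 713 values from the alternatives kept their direction and their side of the threshold, 35 reversed, 8 gained and 9 lost a call, and with single libraries left out these numbers were 3341, 38, 8 and 14. Reversals lay near 0 or in the sex comparison, and the causes were not tested. In batch B alone, 4297 genes were called at 24 h ipsilaterally (8216 in the pooled fit) and 3854 between 24 h and 72 h (7078), with H2-DMa at -0.01 at 24 h. Ipsilateral Ciita between the times was 0.06 without LF3 and 0.07 without LF3 and EM3, with -0.11 to 0.06 over single libraries left out.

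Contralateral counts of calls were unstable. At 24 h 388 genes were called, against 621 with DESeq2, 238 with no filter, 238 with total-count scaling, 1190 without LF3, 0 in batch B and 202 in batch A. At 72 h 48 were called, against 84 with DESeq2, 17 without LF3, 1456 with no batch term and 3 in batch B. Between the times 1698 were called, against 1025 with DESeq2, 357 with total counts, 45 without LF3, 699 with no batch term and 3 in batch B. Single libraries left out gave 249 to 1190, 11 to 1253 and 45 to 3041 genes, and 0 to 1 of the 7 genes at 72 h and between the times, the latter without PF2. At 72 h DESeq2 and the fit with no batch term each called 1 of the 7, H2-DMb1. At 24 h, batch A gave -0.22 for H2-Aa, -0.19 for H2-Ab1 and -0.14 for Cd74, batch B -0.10 for H2-Eb1 and -0.04 for H2-DMa, and no batch term -0.02 for Ciita. At 72 h, batch B gave -0.03 for H2-Eb1, and H2-DMa was -0.02 without LF3. Over single libraries left out, H2-Aa at 24 h was -0.07 to 0.28, H2-Eb1 -0.05 to 0.13, Cd74 -0.06 to 0.10 and H2-DMa -0.03 to 0.11, and at 72 h H2-Eb1 was -0.10 to 0.21 and H2-DMa -0.02 to 0.32.

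In the sex comparison at 24 h (female minus male, ipsilateral), the fit without LF3 and EM3 gave -1.19 for H2-Aa, -0.95 for H2-Ab1, -0.61 for H2-Eb1, -0.99 for Cd74 and -0.20 for H2-DMb1. Batch B gave -1.02, -1.04, -0.96, -1.17 and -1.09 for these, and batch A -0.03 for H2-DMa and -0.10 for Ciita. At 72 h the first 4 were -1.02, -0.78, -0.44 and -0.66 without LF3 and EM3, and -0.26, -0.66, -0.77 and -0.55 in batch B. Single libraries left out gave -1.19 to 0.56, -0.95 to 0.51, -0.61 to 0.68 and -0.99 to 0.30 at 24 h, with -0.02 to 0.14 for H2-DMa and -0.21 to 0.35 for H2-DMb1, and -0.96 to 0.79, -0.80 to 0.65, -0.54 to 0.75 and -0.70 to 0.59 at 72 h. DESeq2 called 1 gene in the ipsilateral comparison at 24 h and 2 in the contralateral one at 72 h, neither of them among the 7.

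Between the sides of naive mice, the fit without LF3 and EM3 gave -0.15 for H2-Aa, -0.18 for H2-Ab1 and -0.25 for Cd74, DESeq2 gave -0.04 for Cd74, and 17 genes were called with no filter. The replicate block is the animal, and without the block 5, 7 and 5 of the 7 genes were called at 24 h, at 72 h and between them, as with it, with 8345, 11433 and 5827 genes called in all and H2-Aa at 2.05, 3.6 and 1.55, so no call among the 7 changed. Naive animals were not left out singly in the fits of sides. Scaling to total counts moved the share of calls that were higher from 53.2% to 67.3% at 24 h ipsilaterally, from 38.9% to 54.2% at 24 h contralaterally, and from 50.5% to 63.9% between the sides at 72 h and from 53.6% to 66.9% in its growth. With no batch term it moved from 93.8% to 28.1% at 72 h contralaterally and from 91.3% to 34.9% between the times. Other lost or gained calls were those of H2-Eb1 in males at 24 h, lost without CM1, DM2, EM2 or KM2 (1.01 to 1.09), and H2-DMb1 in males at 24 h, called without EM3 (1.05). H2-DMa at 24 h ipsilaterally was called without KF3 (0.21), and the growth of the side difference of Ciita without QM2 (0.49). Depth limits the naive values, where H2-Aa had 317 counts over the ipsilateral and 228 over the contralateral libraries.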
